A study of Mus musculus with 6 samples.

Results

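Iron, heme and iron-sulfur cluster genes were examined in mouse hearts after deletion of *Immt*, which encodes Mic60, an inner-membrane protein of the MICOS complex of mitochondria. The group held 32 genes that were picked by symbol for what their proteins do, and all 32 were found among the 27021 genes of the count table. The series held 3 hearts of *Immtfl/fl-Myh6-MCM* mice, in which an exon of both *Immt* alleles lay between loxP sites. The controls were 3 hearts of *Immt+/+-Myh6-MCM* mice, with unmodified *Immt* alleles. Mice of both groups carried Myh6-MCM, a tamoxifen-activated Cre recombinase driven by the promoter of the α-myosin heavy chain gene. Both groups also received tamoxifen at 6 weeks of age in 3 injections of 40 mg/kg. The interval to heart collection was 20 weeks, which made the mice 26 weeks old. Because this promoter acts in cardiomyocytes, the endothelial cells, fibroblasts, macrophages and blood cells of these hearts carry the transgene without being its target.

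Cells import iron bound to transferrin, store it in ferritin and release it through ferroportin, and mitochondria use it to build heme and iron-sulfur clusters. Iron-sulfur clusters are made on a scaffold in the mitochondrial matrix and are then handed to enzymes of respiration and lipoic acid synthesis, while heme is made by a chain of enzymes that begins and ends in the matrix. When iron is scarce, the iron regulatory proteins bind hairpins called iron-responsive elements in certain mRNAs, which blocks translation from a hairpin in the 5′ UTR and protects the mRNA from decay at hairpins in the 3′ UTR.

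The hairpins that make some of these mRNAs targets of iron regulatory proteins are shown first, because iron is known to act through such elements on the mRNAs of the transferrin receptor, ferritin, ferroportin and *Alas2*. A search for a bulged C, a stem of 5 paired bases and a loop of 6 bases (CAGTG and any base) found 9 matches in 6 of the 32 members. The same search matched the 5′ UTR of 0.142% and the 3′ UTR of 0.589% of 21901 mouse protein-coding genes. Elements with another loop sequence, an unpaired base in the stem or another bulge could not be found by this search, so the list may be incomplete. A member without a match is therefore not shown to lack such an element. Capitals mark the loop of 6 bases. The letters A to D only order the *Tfrc* matches along the transcript and are not established element names.
Tfrc 3′ UTR element A: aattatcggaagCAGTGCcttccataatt
Tfrc 3′ UTR element B: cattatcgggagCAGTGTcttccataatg
Tfrc 3′ UTR element C: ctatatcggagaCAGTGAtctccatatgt
Tfrc 3′ UTR element D: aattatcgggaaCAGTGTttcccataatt
Fth1 5′ UTR: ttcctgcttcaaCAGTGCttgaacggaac
Ftl1 5′ UTR: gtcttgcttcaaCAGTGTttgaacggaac
Slc40a1 5′ UTR: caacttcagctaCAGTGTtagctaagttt
Alas2 5′ UTR: ttggttcgtcctCAGTGCagggcaacagg
Bola3 3′ UTR: ccctttcagaagCAGTGActtttgctcac

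On GRCm38 the *Tfrc* elements lay on the plus strand at chr16:32631219-32631247, chr16:32631598-32631626, chr16:32631663-32631691 and chr16:32631710-32631738. The *Fth1* element was at chr19:9982732-9982760 on the plus strand, the *Ftl1* element at chr7:45459779-45459807 on the minus strand and the *Slc40a1* element at chr1:45925465-45925493 on the minus strand. The *Alas2* element crossed an exon junction, with its first base at chrX:150547458 and its last at chrX:150552149. The *Bola3* stretch, at chr6:83358421-83358449 on the plus strand, matched the search letters, and binding of an iron regulatory protein to it was not measured. The sequences come from transcripts of GENCODE release M21.

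Each library held 49793058 to 53251529 counts in *Immtfl/fl-Myh6-MCM* hearts and 42301627 to 44151674 counts in control hearts. *Immt* itself averaged 30.3 CPM in *Immtfl/fl-Myh6-MCM* hearts and 547 CPM in control hearts, or 5.55% of control. Levels are CPM after TMM normalization throughout: a gene's counts relative to the size of its library, with libraries then scaled so that most genes have the same level. Mitochondrially encoded genes took 8.2% to 8.9% of the counts in *Immtfl/fl-Myh6-MCM* hearts and 19.5% to 23.3% in control hearts. Reads assigned to *Esr1*, the gene whose ligand-binding domain is part of MCM, numbered 71 to 323 per *Immtfl/fl-Myh6-MCM* library and 144479 to 165400 per control library, so transgene expression and *Immt* genotype cannot be told apart in any comparison below. The summed level of 10 cardiomyocyte marker genes was 36864 to 49784 CPM in *Immtfl/fl-Myh6-MCM* hearts and 78645 to 83239 CPM in control hearts. The markers differed among themselves. By the rule given below, 5 of the 10 fell, or 50%, against 10.6% of all tested genes, with *Pln* at 22.5% of control. *Myh6* and *Ttn* were lower, at 53.5% and 65.0% of control, without passing the fold threshold of that rule. *Mybpc3*, *Actn2* and *Tnnt2* were at 107%, 90.1% and 88.4% of control and overlapped between the groups. One heart of each group expressed *Xist*, namely *Immtfl/fl-Myh6-MCM* replicate 3 with 20811 counts and control replicate 3 with 11605, while the remaining libraries held at most 16. In whole-heart RNA, fewer cells of a type and less RNA per cell cannot be told apart.

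The comparison asked which iron, heme and iron-sulfur cluster transcripts differed in hearts after deletion of *Immt*. All 32 members passed the filter on low counts and were tested together with all other genes, 17146 in all, by edgeR's quasi-likelihood test. A gene was said to rise or fall when its Benjamini-Hochberg adjusted p over all tested genes was under 0.05 and its log2 fold change exceeded 1 in size. By this rule 4 members rose (*Ftl1*, *Hmox1*, *Blvrb* and *Ciapin1*) and 3 fell (*Steap3*, *Slc40a1* and *Abcb10*), or 21.9% of the members, against 20.5% of all tested genes (9.91% higher and 10.6% lower). The adjusted p alone was passed by 9 members with higher and 7 with lower levels, or 16 of 32, against 38.4% of all tested genes (19.9% higher and 18.5% lower). Hearts of the groups did not overlap for 18 of the 32 members, against 52.8% of all tested genes. Without *Immtfl/fl-Myh6-MCM* replicate 3, a heart that stood apart for several members and was the *Xist*-expressing heart of its group, 4 members rose and 3 fell, with *Alas2* called in place of *Ciapin1*. The median log2 fold change of the members was -0.06, and that of all tested genes was 0.00. The members as a group were therefore called about as often as other genes, and the differences between their roles are described below.

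**Figure D1:**
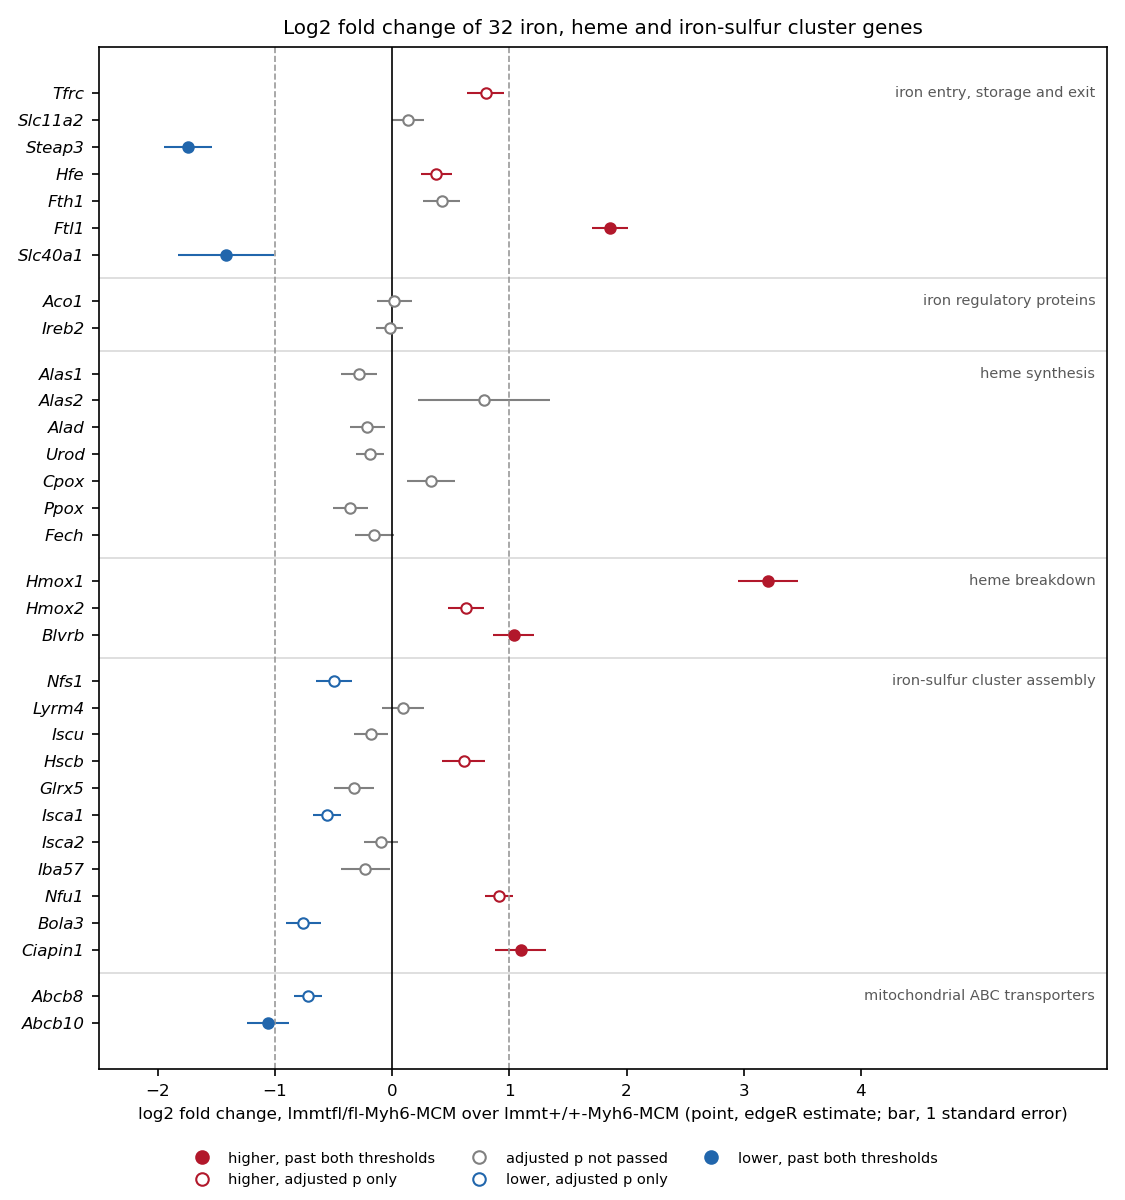
Log2 fold change (x axis) of each of the 32 genes (y axis, grouped by role), with the edgeR estimate as a point and 1 standard error as a bar; dashed lines stand at -1 and 1. The heme breakdown genes lie right of 0, the heme synthesis genes are all gray, and iron storage and exit genes lie on opposite sides of 0.

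Of the ferritin subunits, which form the iron storage shell, the light chain rose and the heavy chain did not pass the test. *Ftl1*, the light chain that helps to lay down the iron core, had 617, 592 and 748 CPM in *Immtfl/fl-Myh6-MCM* hearts, against 164, 165 and 210 CPM in control hearts. Every *Immtfl/fl-Myh6-MCM* heart lay far above every control heart, with a ratio of the means of 3.63. The log2 fold change of *Ftl1* was 1.86 ± 0.15 (SE, adjusted p = 3.01e-05, edgeR). *Fth1*, the heavy chain with the ferroxidase site, had 1512, 1588 and 1927 CPM in *Immtfl/fl-Myh6-MCM* hearts, against 1398, 1037 and 1315 CPM in control hearts. The groups did not overlap for *Fth1*, but its log2 fold change of 0.42 ± 0.16 (SE) did not pass the test (adjusted p = 0.0600, edgeR).

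The light chain to heavy chain ratio was compared within each heart. *Ftl1* over *Fth1* was 0.408, 0.373 and 0.388 in *Immtfl/fl-Myh6-MCM* hearts, against 0.117, 0.159 and 0.160 in control hearts. The ratios compared were picked with the values known. They are ratios of CPM, not corrected for transcript length, and are read only between hearts. The log2 ratio was higher by 1.44 in *Immtfl/fl-Myh6-MCM* hearts, with every heart of this group above every control heart (exact two-sided permutation test, p = 0.1, the smallest that 3 against 3 hearts can give, and 0.15 after adjustment over the 3 ratios compared). Processed copies of *Ftl1* listed in the table (*Ftl1-ps1* and *Ftl1-ps2*) held 0.92% as many counts as *Ftl1*.

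Genes for iron uptake went different ways. *Tfrc*, the transferrin receptor, had 38.5, 50.6 and 45.2 CPM in *Immtfl/fl-Myh6-MCM* hearts, against 26.7, 29.0 and 21.4 CPM in control hearts. The lowest *Immtfl/fl-Myh6-MCM* heart lay above the highest control heart, and the log2 fold change of 0.80 ± 0.16 (SE) passed the adjusted p (0.00374, edgeR) but not the fold threshold. *Hfe*, an MHC class I-like partner of the transferrin receptor, had 62.9, 51.0 and 49.1 CPM in *Immtfl/fl-Myh6-MCM* hearts, against 41.5, 45.2 and 39.0 CPM in control hearts. Its log2 fold change of 0.38 ± 0.13 (SE) was at the edge of the test (adjusted p = 0.0491, edgeR), and the adjusted p stayed under 0.05 in only 4 of 14 other settings.

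Farther along the uptake route, *Steap3*, an endosomal reductase of the iron released from transferrin, had 15.2, 11.9 and 8.74 CPM in *Immtfl/fl-Myh6-MCM* hearts, against 38.0, 36.6 and 45.4 CPM in control hearts. The 3 *Immtfl/fl-Myh6-MCM* hearts were all far below the controls. *Steap3* fell by 1.74 ± 0.21 (SE) on the log2 scale (adjusted p = 0.000233, edgeR), and the call held in all 14 other settings. *Slc11a2*, the divalent metal transporter that moves iron out of the endosome, had 27.9, 24.7 and 31.4 CPM in *Immtfl/fl-Myh6-MCM* hearts, against 25.9, 24.2 and 26.5 CPM in control hearts, and the groups overlapped (log2 fold change 0.13 ± 0.14, SE; adjusted p = 0.483, edgeR).

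Ferroportin, the iron exporter encoded by *Slc40a1*, was the member with a wide spread in both groups. *Slc40a1* had 16.5, 18.7 and 6.69 CPM in *Immtfl/fl-Myh6-MCM* hearts, against 43.7, 23.8 and 44.6 CPM in control hearts. Replicate 3 of the *Immtfl/fl-Myh6-MCM* hearts and replicate 2 of the control hearts were low within their groups, and the groups did not overlap. *Slc40a1* fell by 1.42 ± 0.41 (SE) on the log2 scale (adjusted p = 0.0289, edgeR). The direction held in all 14 other settings, while the call held in 9 of them and was lost without *Immtfl/fl-Myh6-MCM* replicate 1 (adjusted p = 0.0780), control replicate 1 (0.0704) or control replicate 3 (0.0731).

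Macrophages, which recycle the iron of red cells, are a major site of ferroportin. The summed level of 14 macrophage marker genes was 734, 613 and 323 CPM in *Immtfl/fl-Myh6-MCM* hearts, against 284, 388 and 346 CPM in control hearts, and none of the markers was at 0 in every heart. Of the 14 markers 2 rose and none fell, or 14.3%, against 20.5% of all tested genes. The macrophage sum and *Slc40a1* were both lowest in replicate 3 among the *Immtfl/fl-Myh6-MCM* hearts. Among control hearts, replicate 2 had the lowest *Slc40a1* level (23.8 CPM) and the highest macrophage sum (388 CPM). *Immtfl/fl-Myh6-MCM* replicates 1 and 2 had higher macrophage sums than every control heart and lower *Slc40a1* levels. The part of these cells in the *Slc40a1* level was not tested.

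**Figure D2:**
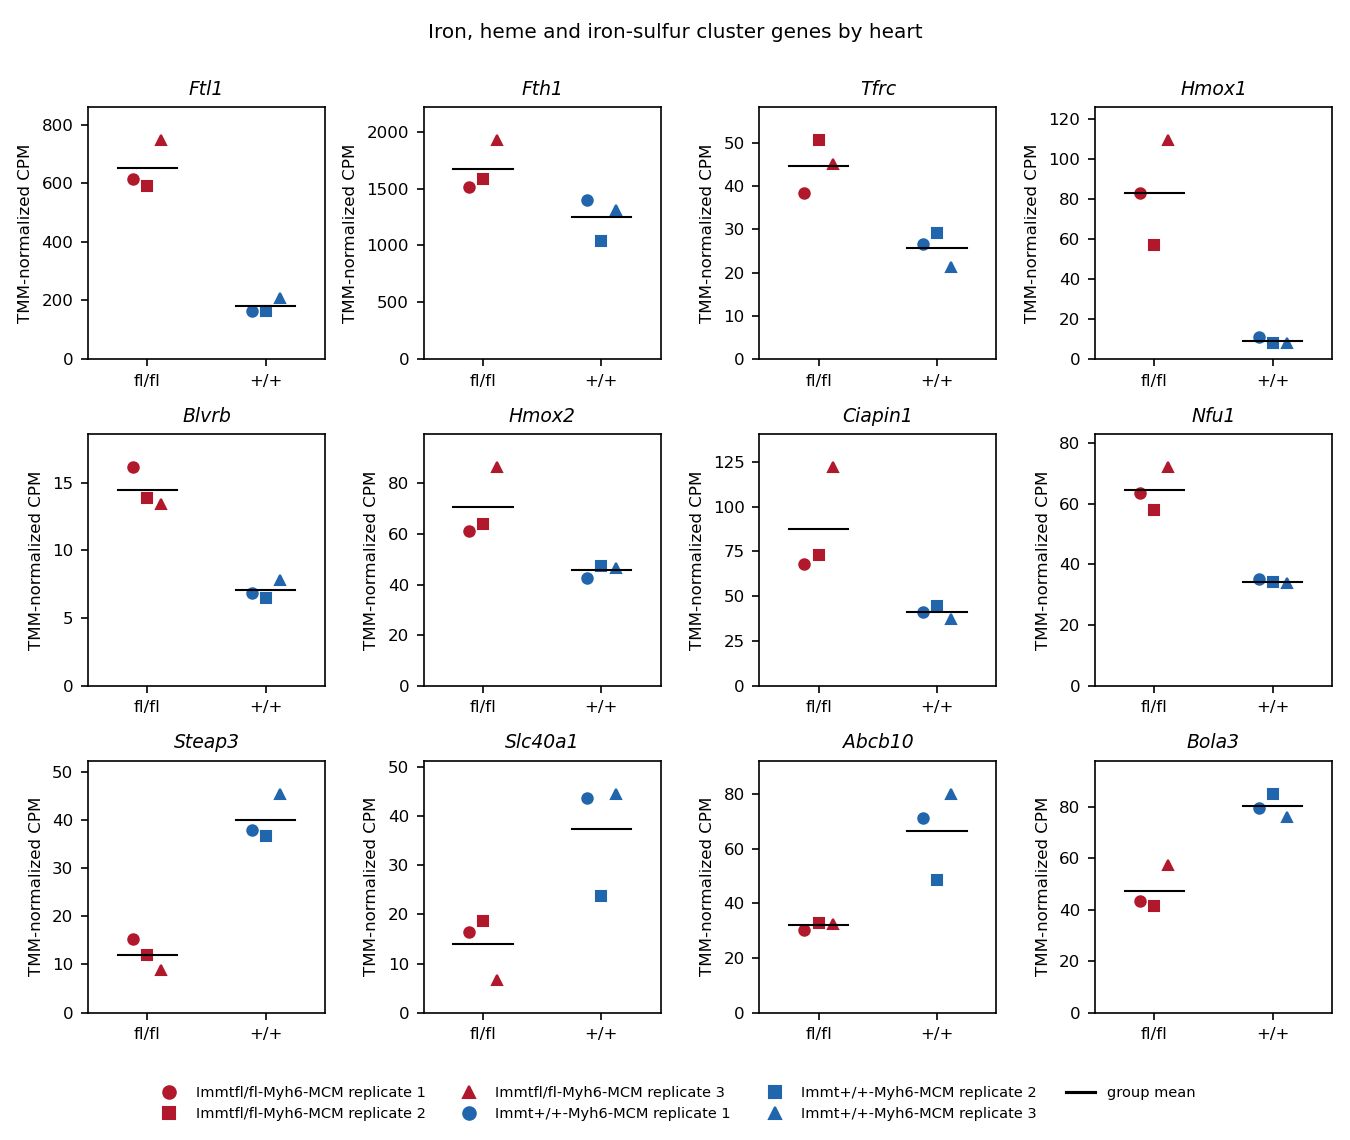
TMM-normalized CPM (y axis) of 12 member genes in each *Immtfl/fl-Myh6-MCM* heart (left of each panel) and each *Immt+/+-Myh6-MCM* heart (right), with 1 symbol per replicate and a line at the group mean. The 12 genes were drawn from the 18 of 32 members whose groups do not overlap, against 52.8% of all tested genes. *Ftl1* lies at 592 to 748 CPM against 164 to 210 CPM, and *Steap3* at 8.74 to 15.2 CPM against 36.6 to 45.4 CPM.

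The mRNAs of the iron regulatory proteins showed no detectable difference. *Aco1*, which encodes the iron regulatory protein that doubles as cytosolic aconitase, had 38.3, 42.8 and 54.5 CPM in *Immtfl/fl-Myh6-MCM* hearts, against 48.9, 43.2 and 41.9 CPM in control hearts (log2 fold change 0.02 ± 0.15, SE; adjusted p = 0.943, edgeR). *Ireb2*, which encodes the other iron regulatory protein, had 63.0, 62.0 and 62.0 CPM in *Immtfl/fl-Myh6-MCM* hearts, against 61.3, 69.7 and 58.6 CPM in control hearts (log2 fold change -0.02 ± 0.11, SE; adjusted p = 0.910, edgeR). These proteins are set by iron mainly after transcription, through the iron-sulfur cluster of the one and the turnover of the other, which mRNA counts do not read.

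None of the 7 heme synthesis members passed the adjusted p, against 38.4% of all tested genes. *Alas1*, the rate-limiting first enzyme outside erythroid cells, had 106, 122 and 143 CPM in *Immtfl/fl-Myh6-MCM* hearts, against 140, 177 and 134 CPM in control hearts, with a log2 fold change of -0.28 ± 0.16 (SE, adjusted p = 0.184, edgeR). *Ppox*, which oxidizes protoporphyrinogen, was the member of this role whose groups did not overlap, at 15.57, 13.99 and 14.58 CPM in *Immtfl/fl-Myh6-MCM* hearts, against 16.9, 20.8 and 18.8 CPM in control hearts (log2 fold change -0.36 ± 0.15, SE; adjusted p = 0.0912, edgeR). For *Alad*, *Urod* and *Fech*, which join aminolevulinic acid, decarboxylate uroporphyrinogen and insert iron, the log2 fold changes were -0.21, -0.19 and -0.15, with adjusted p of 0.299, 0.260 and 0.507 in edgeR. *Cpox*, the coproporphyrinogen oxidase, had 59.7, 70.2 and 40.1 CPM in *Immtfl/fl-Myh6-MCM* hearts, against 45.9, 38.6 and 50.5 CPM in control hearts (log2 fold change 0.33 ± 0.20, SE; adjusted p = 0.227, edgeR).

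*Alas2*, the erythroid form of the first enzyme, stood apart by its spread. It had 55.95, 53.03 and 11.01 CPM in *Immtfl/fl-Myh6-MCM* hearts, against 21.17, 22.54 and 25.96 CPM in control hearts. Replicates 1 and 2 of the *Immtfl/fl-Myh6-MCM* hearts lay above all controls and replicate 3 below all of them, and the log2 fold change of 0.78 ± 0.57 (SE) did not pass the test (adjusted p = 0.329, edgeR). Without *Immtfl/fl-Myh6-MCM* replicate 3 it was 1.24 (adjusted p = 8.81e-05, edgeR).

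Erythroid marker genes were likewise high in *Immtfl/fl-Myh6-MCM* replicates 1 and 2 and low in replicate 3. The summed level of 11 erythroid markers was 1535, 1499 and 498 CPM in *Immtfl/fl-Myh6-MCM* hearts, against 527, 637 and 599 CPM in control hearts, and none of the markers was at 0 in every heart. Of the 8 erythroid markers tested, 3 rose and 1 fell, against 20.5% called among all tested genes. The level of *Alas2* relative to *Hbb-bs*, an adult β-globin gene, was 0.0822, 0.0771 and 0.0611 in *Immtfl/fl-Myh6-MCM* hearts, against 0.0747, 0.0700 and 0.0812 in control hearts. The groups overlapped for this ratio, which differed by -0.04 on the log2 scale (exact two-sided permutation test, p = 0.9, also 0.9 after adjustment over the 3 ratios). *Alas2* and the erythroid sum were thus both lowest in the same heart of all 6, and the part of blood cells in the *Alas2* level was not tested further.

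**Figure D3:**
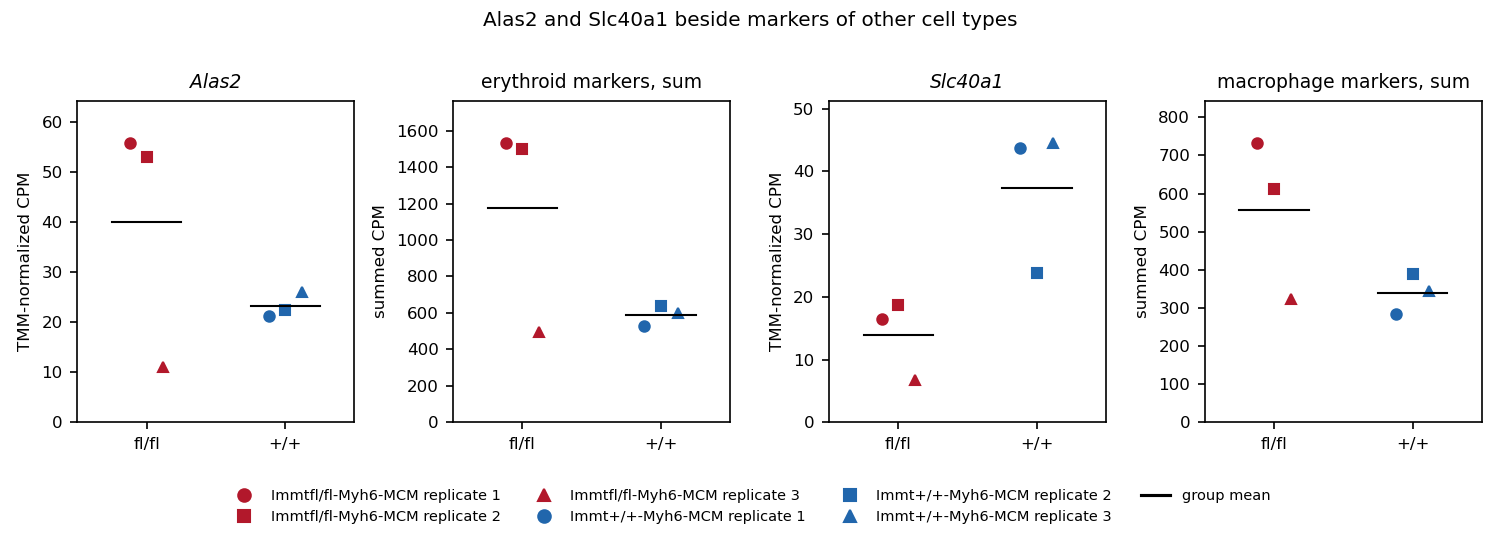
Level in CPM (y axis) of *Alas2*, of 11 erythroid markers summed, of *Slc40a1* and of 14 macrophage markers summed, in *Immtfl/fl-Myh6-MCM* hearts (left of each panel) and *Immt+/+-Myh6-MCM* hearts (right), with 1 symbol per replicate and a line at the group mean. *Immtfl/fl-Myh6-MCM* replicate 3 (red triangle) is the lowest of its group in all 4 panels. Control replicate 2 (blue square) is the lowest of its group for *Slc40a1* and the highest for the macrophage sum.

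All 3 heme breakdown members were higher in *Immtfl/fl-Myh6-MCM* hearts and passed the adjusted p, as 19.9% of all tested genes did in this direction. *Hmox1*, the stress-inducible heme oxygenase that opens the heme ring and frees its iron, had 82.9, 57.3 and 109.5 CPM in *Immtfl/fl-Myh6-MCM* hearts, against 11.2, 7.98 and 7.90 CPM in control hearts. The means differed 9.23-fold and the groups were far apart. The log2 fold change of *Hmox1* was 3.21 ± 0.26 (SE, adjusted p = 4.65e-05, edgeR), the largest rise among the 32 members.

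*Hmox2*, the constitutive heme oxygenase, had 61.2, 64.0 and 86.4 CPM in *Immtfl/fl-Myh6-MCM* hearts, against 42.7, 47.5 and 46.5 CPM in control hearts. This difference, 0.63 ± 0.15 (SE) on the log2 scale, passed the adjusted p (0.00917, edgeR) but not the fold threshold. Within each heart, *Hmox1* over *Hmox2* was 1.35, 0.895 and 1.27 in *Immtfl/fl-Myh6-MCM* hearts, against 0.261, 0.168 and 0.170 in control hearts. The log2 ratio was higher by 2.56 in *Immtfl/fl-Myh6-MCM* hearts, without overlap (exact two-sided permutation test, p = 0.1, adjusted 0.15). *Blvrb*, which encodes biliverdin reductase B, had 16.2, 13.9 and 13.4 CPM in *Immtfl/fl-Myh6-MCM* hearts, against 6.85, 6.47 and 7.85 CPM in control hearts. *Blvrb* rose by 1.04 ± 0.18 (SE) on the log2 scale (adjusted p = 0.00171, edgeR), close to the fold threshold, and was just under it, at 0.97, without *Immtfl/fl-Myh6-MCM* replicate 1, at 0.98 without control replicate 2 and at 0.93 with upper-quartile scaling.

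**Figure D4:**
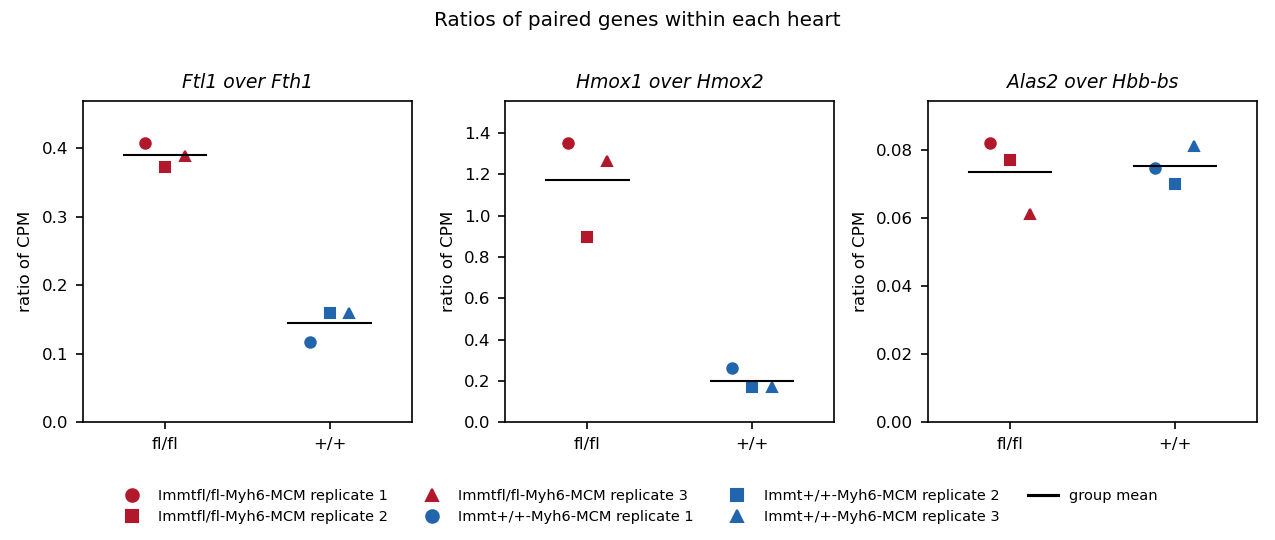
Ratio of the CPM of 2 genes within each heart (y axis) for *Ftl1* over *Fth1*, *Hmox1* over *Hmox2* and *Alas2* over *Hbb-bs*, in *Immtfl/fl-Myh6-MCM* hearts (left of each panel) and *Immt+/+-Myh6-MCM* hearts (right), with 1 symbol per replicate and a line at the group mean. The groups are apart for *Ftl1* over *Fth1* (0.373 to 0.408 against 0.117 to 0.160) and for *Hmox1* over *Hmox2*, and overlap for *Alas2* over *Hbb-bs*.

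The 11 iron-sulfur cluster assembly members were split between higher and lower: 3 passed the adjusted p in each direction, or 54.5%, against 38.4% of all tested genes, and 1 of these, *Ciapin1*, also passed the fold threshold. Among early steps, *Nfs1*, the cysteine desulfurase that supplies sulfur, had 35.2, 47.8 and 48.2 CPM in *Immtfl/fl-Myh6-MCM* hearts, against 67.7, 53.7 and 63.6 CPM in control hearts (log2 fold change -0.50 ± 0.15, SE; adjusted p = 0.0306, edgeR). *Hscb*, the co-chaperone that releases the cluster from the scaffold, had 11.3, 10.9 and 9.85 CPM in *Immtfl/fl-Myh6-MCM* hearts, against 8.08, 6.57 and 6.36 CPM in control hearts (log2 fold change 0.61 ± 0.19, SE; adjusted p = 0.0289, edgeR). The groups did not overlap for either gene, but the adjusted p stayed under 0.05 in only 10 of 14 other settings for *Nfs1* and 8 of 14 for *Hscb*. It was 0.0959 to 0.117 for *Nfs1* without *Immtfl/fl-Myh6-MCM* replicate 1, control replicate 1 or control replicate 3, and 0.0783 to 0.105 for *Hscb* without *Immtfl/fl-Myh6-MCM* replicate 1 or 2 or control replicate 2 or 3. *Lyrm4*, the small partner of *Nfs1*, *Iscu*, the scaffold itself, and *Glrx5*, a carrier of the new cluster, did not pass the test, with log2 fold changes of 0.09, -0.18 and -0.33.

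Among late steps, which deliver clusters to target enzymes, *Nfu1* and *Bola3* differed from control in opposite directions, although their proteins act on the same lipoic acid branch. *Nfu1* had 63.5, 57.9 and 72.1 CPM in *Immtfl/fl-Myh6-MCM* hearts, against 35.0, 34.2 and 33.8 CPM in control hearts, and its log2 fold change of 0.91 ± 0.12 (SE, adjusted p = 0.000407, edgeR) stayed just under the fold threshold. *Bola3* had 43.3, 41.6 and 57.5 CPM in *Immtfl/fl-Myh6-MCM* hearts, against 79.4, 85.1 and 76.1 CPM in control hearts, a log2 fold change of -0.76 ± 0.15 (SE, adjusted p = 0.00321, edgeR). The groups were apart for both genes, and both passed the adjusted p in all 14 other settings. *Isca1*, an assembly factor for larger clusters, had 147, 160 and 176 CPM in *Immtfl/fl-Myh6-MCM* hearts, against 253, 226 and 231 CPM in control hearts (log2 fold change -0.56 ± 0.12, SE; adjusted p = 0.00532, edgeR). Its partners *Isca2* and *Iba57* did not pass the test, with log2 fold changes of -0.10 and -0.23.

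*Ciapin1*, an electron carrier of the cytosolic assembly machinery that also has an anti-apoptotic role, had 67.9, 73.0 and 122 CPM in *Immtfl/fl-Myh6-MCM* hearts, against 41.3, 44.4 and 37.4 CPM in control hearts. All *Immtfl/fl-Myh6-MCM* hearts were above the controls, and replicate 3 was far above the other two. *Ciapin1* rose by 1.10 ± 0.22 (SE) on the log2 scale (adjusted p = 0.00432, edgeR). Without *Immtfl/fl-Myh6-MCM* replicate 3 the log2 fold change was 0.79, under the fold threshold, with an adjusted p of 0.000818.

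Both mitochondrial ABC transporters were lower in *Immtfl/fl-Myh6-MCM* hearts and passed the adjusted p, as 18.5% of all tested genes did in this direction. *Abcb10*, an inner-membrane transporter linked to heme synthesis in erythroid cells, had 30.4, 32.8 and 32.5 CPM in *Immtfl/fl-Myh6-MCM* hearts, against 71.1, 48.5 and 80.0 CPM in control hearts. The *Immtfl/fl-Myh6-MCM* hearts were close to each other and the controls were spread, with replicate 2 the lowest of them. *Abcb10* fell by 1.06 ± 0.18 (SE) on the log2 scale (adjusted p = 0.00149, edgeR), and by 0.91, under the fold threshold, without control replicate 3. *Abcb8*, a transporter linked to iron export from mitochondria in mouse heart, had 47.1, 44.9 and 48.1 CPM in *Immtfl/fl-Myh6-MCM* hearts, against 76.1, 69.1 and 85.2 CPM in control hearts. The groups were apart, and the log2 fold change of -0.72 ± 0.12 (SE) passed the adjusted p (0.00150, edgeR) but not the fold threshold.

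Other genes of these pathways, listed by function, gave 66 tested genes, of which 10 rose and 4 fell (21.2%, against 20.5% of all tested genes), with a median log2 fold change of 0.17. Among iron handling genes, *Steap2*, a metalloreductase of the same family as *Steap3*, had 26.8, 26.4 and 15.3 CPM in *Immtfl/fl-Myh6-MCM* hearts, against 1.31, 1.93 and 1.81 CPM in control hearts (log2 fold change 3.76, adjusted p = 1.92e-05, edgeR). *Steap1* also rose, with 234, 272 and 110 counts in *Immtfl/fl-Myh6-MCM* libraries, against 0, 0 and 10 counts in control libraries (adjusted p = 0.00305, edgeR). Thus *Steap3* fell while *Steap1* and *Steap2* rose. *Trf*, which encodes transferrin, had 5.23, 2.84 and 2.32 CPM in *Immtfl/fl-Myh6-MCM* hearts, against 0.830, 0.818 and 0.905 CPM in control hearts (log2 fold change 2.02, adjusted p = 0.00310, edgeR).

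*Lcn2*, which encodes the siderophore-binding lipocalin, had 29.3, 28.8 and 99.8 CPM in *Immtfl/fl-Myh6-MCM* hearts, against 0.348, 3.55 and 1.42 CPM in control hearts (log2 fold change 4.88, adjusted p = 0.0143, edgeR). *Hfe2*, which encodes the hepcidin regulator hemojuvelin and is known from heart and skeletal muscle as well as liver, had 71.6, 79.3 and 69.4 CPM in *Immtfl/fl-Myh6-MCM* hearts, against 188, 147 and 176 CPM in control hearts (log2 fold change -1.22, adjusted p = 0.000132, edgeR). Of the 20 other iron handling genes tested, 4 rose and 1, *Hfe2*, fell, or 25%, against 20.5% of all tested genes. The adjusted p alone was passed by 35% of them, against 38.4% of all tested genes.

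Among other heme genes, *Hebp2*, which encodes a heme-binding protein of the SOUL family, and *Pgrmc1*, a heme-binding membrane protein, rose by 3.02 and 1.04 on the log2 scale (adjusted p = 8.39e-05 and 0.000193, edgeR). The rise of *Pgrmc1* was close to the fold threshold. *Flvcr2*, a transporter of the heme exporter family, fell by 2.06 and *Uros*, the uroporphyrinogen synthase, by 1.03 on the log2 scale (adjusted p = 0.000637 and 0.00227, edgeR). *Uros* is the heme synthesis enzyme outside the 32 members that passed both thresholds, at 12.99, 11.96 and 8.38 CPM in *Immtfl/fl-Myh6-MCM* hearts, against 22.89, 22.96 and 22.37 CPM in control hearts, and its log2 fold change was -0.86 without *Immtfl/fl-Myh6-MCM* replicate 3.

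Among other iron-sulfur cluster genes, *Slc25a39*, the carrier that brings glutathione into mitochondria, had 339, 302 and 350 CPM in *Immtfl/fl-Myh6-MCM* hearts, against 82.6, 84.1 and 102 CPM in control hearts (log2 fold change 1.88, adjusted p = 1.28e-05, edgeR). *Hspa9*, the mitochondrial Hsp70 that works with *Hscb*, rose by 1.08 and *Nubp2*, a cytosolic scaffold protein, by 1.24 on the log2 scale (adjusted p = 0.000298 and 0.000384, edgeR). The log2 fold change of *Hspa9* was just under the fold threshold with upper-quartile factors (0.978) and without *Immtfl/fl-Myh6-MCM* replicate 3 (0.982).

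Proteins that carry iron-sulfur clusters were listed apart from those that build them. Of 27 such genes tested, none rose and 4 fell, or 14.8%, against 20.5% of all tested genes. The adjusted p alone was passed by 4 with higher and 14 with lower levels, or 66.7%, against 38.4% of all tested genes (19.9% higher and 18.5% lower). Their median log2 fold change was -0.61. *Uqcrfs1*, the Rieske protein of complex III, had 270, 314 and 389 CPM in *Immtfl/fl-Myh6-MCM* hearts, against 739, 591 and 684 CPM in control hearts (log2 fold change -1.05, adjusted p = 0.000909, edgeR). *Etfdh*, which passes electrons from fatty acid oxidation to ubiquinone, had 247, 286 and 367 CPM in *Immtfl/fl-Myh6-MCM* hearts, against 747, 571 and 596 CPM in control hearts (log2 fold change -1.09, adjusted p = 0.00118, edgeR). Each was under the fold threshold without *Immtfl/fl-Myh6-MCM* replicate 1 (-0.92 for *Uqcrfs1* and -0.95 for *Etfdh*) or control replicate 1 (-0.98 and -0.96).

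The promoters were read for response elements that are known to lie upstream of stress genes. RefSeq promoter windows on GRCm38.p6, from 250 bases before to 50 after the start, were given for 25 members in 37 windows. The antioxidant response element core TGACNNNGC, searched on both strands, was in 4 of these windows, those of *Hfe*, *Nfs1*, *Isca1* and *Ciapin1*, or 10.8%, against 12.4% of 32851 mouse windows. The C/EBP-ATF response element core TGATGNAA was in 0 member windows, against 3.97% of all windows. Sequence outside these windows was not searched. A window without a match therefore does not show that the gene lacks the element. The promoters of *Hmox1* and *Slc40a1* were not analysed here.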

How the data were processed

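Hearts of 3 *Immtfl/fl-Myh6-MCM* and 3 *Immt+/+-Myh6-MCM* mice were compared, 1 library per heart, grouped by the genotype in the sample labels. The libraries were made from polyadenylated RNA captured with an oligo-dT primer carrying a molecular identifier. The submitters' processing notes name STAR 2.7.11, SAMtools 1.22.1, featureCounts, Subread 2.1.1 and edgeR 4.0.16, with GRCm38; whether strand was used in counting, and whether molecular identifiers were collapsed, is not given in the sources. The authors deposited raw read counts per gene, which were used for every value. The deposited table also holds a size-factor normalized signal and FPKM per library, and the authors' own log2 fold change and p-value columns for the same comparison; none of these was used, and no column with values per sample was left unmapped.

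Counts were filtered with filterByExpr (minimum count 10, minimum total 15), scaled by TMM and tested with edgeR 4.0.16 (robust quasi-likelihood fit, prior count 0.125) in R 4.3.3, without covariates. P-values were adjusted over 17146 genes, and SE is the log2 fold change over the square root of F. A call required an adjusted p under 0.05 together with a log2 fold change over 1 in size, the thresholds of the study's volcano plot. The code was tested on simulated data. Coordinates are those of the table. Exons of 12 members overlap exons of another gene in GENCODE M21, most on the opposite strand (*Hmox2* with *Cdip1*, *Ciapin1* with *Coq9* and *Gm7418*, *Abcb10* with *Gm45890*, *Ftl1* with *Gm10252*), and reads of the pair could not be told apart if strand was not used in counting. Nothing says that same-numbered hearts of the groups belong together. The labels number the hearts but name no animals, so p-values measure the spread between these samples. Replicates of a group correlated at Spearman 0.975 to 0.988.

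The 32 members and all other lists were chosen with earlier results of these data known. All members were named; from each further list, the called genes among the 6 with the smallest p were named. Of 158 genes on those lists, 155 are in the table.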

Additional observations from a re-analysis of the deposited data

How the results depend on the processing

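The counts of members that rose (4) and fell (3) were repeated under RLE and upper-quartile factors, TMM without mitochondrially encoded genes, the DESeq2 1.42.0 Wald test, a strict or no low-count filter, no fold threshold, a replicate block, a term for the *Xist*-expressing hearts, and leaving out each heart. Upper-quartile factors, which shifted the median log2 fold change of all genes by -0.10, gave 2 members higher (*Blvrb* and *Ciapin1* were then at 0.93 and 0.99) and 7 other pathway genes lower. With no fold threshold, 9 members were higher and 7 lower, and 22 other pathway genes were higher and 10 lower. Leaving out 1 heart gave 3 to 4 members higher and 1 to 3 lower, and 9 to 11 other pathway genes higher and 3 to 6 lower; 1 member was lower without control replicate 3, when *Slc40a1* (adjusted p = 0.0731) and *Abcb10* (log2 fold change -0.91) were no longer called.

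*Slc40a1* was also lost with no filter (adjusted p = 0.140). Same-numbered hearts did not deviate together (correlations of 0.01, -0.04 and 0.01), so they share only a number; with the replicate block 4 members were higher and 2 lower, since *Slc40a1* had an adjusted p of 0.0602, and the adjusted p of *Nfs1* and *Hscb* was 0.0601 and 0.0608. The log2 fold change changed sign for *Aco1* (-0.088 with upper-quartile factors, and -0.13 to 0.14 over the fits that leave out 1 heart), *Ireb2* (-0.074 to 0.055 over the fits that leave out 1 heart) and *Lyrm4* (-0.011 with upper-quartile factors, and -9e-04 to 0.22 over the fits that leave out 1 heart), none of which passed the test in any setting. *Ftl1*, *Hmox1* and *Steap3* were called in all 14 settings that kept the fold threshold. The cause of these changes was not tested. With 3 hearts per group, a difference that did not pass the test is not shown to be absent.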
